A study of Mus musculus with 2 samples.

Results

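The genes examined were 41 extracellular matrix and mesenchymal genes, given by name, among the 28000 rows of a count table from mouse mammary cells. They hold fibrillar collagens and their processing factors, basement membrane proteins, the collagens that anchor basal cells, matricellular proteins, small proteoglycans, matrix proteases with their inhibitors, and the cytoskeletal genes Vim and Msn. All 41 occurred in the table, and their level was followed over every cell, by keratin class, in collagen-high cells, in immune cells and by library. The question was which of these matrix genes the epithelium itself makes.

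The cells came from transplants in which donor basal cells were mixed with wild-type luminal cells and transplanted into fat pads cleared of host epithelium, in female nude mice aged 3 weeks, which lack T cells but keep innate immune cells. Droplet-based single-cell RNA sequencing was run on donor cells that had spent 5 days in the host. Their fluorescence guided the dissection, and flow cytometry was used to sort them. The donor basal cells were either Fgfr2+/+ (Ctrl) or Fgfr2 fl/fl (Fgfr2 KO) before treatment. Basal cells of both groups had been infected with adenovirus that carries Cre and GFP, and donor cells of both carried the R26R-mTmG reporter, so that only Fgfr2 differed by design, and deletion was limited to the cells that the virus had reached. Each group was 1 library, so no test between libraries was possible, and every interval below is a 95% interval for counting error alone, which leaves out how animals and cells vary.

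The Ctrl library held 268 cells and 5458515 unique molecular identifiers (UMIs, each standing for 1 captured RNA molecule), with a median of 16301 per cell. The Fgfr2 KO library held 86 cells and 1253032 UMIs, with a median of 10485, and no cell barcode occurred in both. The samples are labelled as epithelial cells, but 73 Ctrl and 23 Fgfr2 KO cells contained Ptprc, which encodes the leukocyte antigen CD45 (1 UMI or more). Fgfr2 itself was at 33.9 counts per 1000000 UMIs (CPM, 24.4 to 45.8, 42 UMIs) in Ctrl basal cells and at 24.7 CPM (9.94 to 51.0, 7 UMIs) in Fgfr2 KO basal cells. These intervals overlap, and reads at the 3′ end of a transcript can lie outside a deleted stretch, so this level checks neither label. GFP, which by design marks the Cre-treated basal cells, has 1 row in the table, so reads of the virus and of the reporter cannot be told apart. It was at 110 and 477 CPM in basal and at 180 and 945 CPM in luminal cells of Ctrl and Fgfr2 KO. These levels rested on few cells, since without the cell that held most GFP they were 64.9 and 126 CPM in basal and 68.4 and 711 CPM in luminal cells, and GFP was not used to class cells.

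The mammary duct is a bilayer of luminal cells, which line the lumen and express keratins 8 and 18, and basal or myoepithelial cells, which express keratins 5 and 14, contract, and rest on the basement membrane. The basement membrane is a sheet of laminins, type IV collagen, nidogen and perlecan, to which basal cells are held by hemidesmosomes. Outside it lies the stroma, where fibroblasts deposit fibrillar collagens bound by small proteoglycans. Matricellular proteins such as periostin, SPARC, tenascin C and thrombospondin 1 do not build fibres themselves but modulate how cells adhere to the matrix.

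Cells were classed by the genes named in the rule. Collagen-high cells had Col1a1 and Col3a1 at 10 or more per 10000 UMIs and no Ptprc, immune cells had Ptprc and collagen below that limit, and of the remaining cells those with the 4 keratins at 10 or more per 10000 UMIs were called basal where Krt14 and Krt5 exceeded Krt8 and Krt18, and luminal where they did not. This gave 64 basal, 93 luminal, 73 immune and 11 collagen-high cells in Ctrl, and 17, 20, 22 and 3 in Fgfr2 KO, with 27 and 23 cells left low in keratin. One more Fgfr2 KO cell had both Ptprc and collagen over the limit, at 13.4 per 10000 UMIs, and was left out of every class. In Ctrl the collagen-high cells nearest the threshold were at 12.3 inside it and 4.61 outside it, and in Fgfr2 KO at 12.6 and 6.55. The collagen-high cells were not all of one kind. Of the 11 Ctrl cells, 7 had Pdgfra, a fibroblast receptor, and 1 had keratins at 19.6 per 10000 UMIs. Of the 3 Fgfr2 KO cells, 2 had Pdgfra and 1 had immune markers at 229 per 10000 UMIs, so the class is called collagen-high here rather than fibroblast.

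For genes that were higher in basal cells, the sequences around the start of transcription are shown for Postn, Bgn and Col17a1, which were higher in both libraries, and for Col4a1, which was higher in Ctrl and has its start beside that of Col4a2. Each is 250 bases before to 50 bases after a RefSeq start (GRCm38.p6), 5′ to 3′ on the strand of the gene, and capitals mark matches, on either strand, to 3 motifs. These were the TATA motif, spelled TATAAA, the GC box, spelled GGGCGG, and the CCAAT box, named for its letters. The window of Postn is chr3:54360857-54361156 (plus strand), that of Bgn chrX:73483351-73483650 (plus), that of Col17a1 chr19:47691993-47692292 (minus) and that of Col4a1 chr8:11312777-11313076 (minus).
Postn: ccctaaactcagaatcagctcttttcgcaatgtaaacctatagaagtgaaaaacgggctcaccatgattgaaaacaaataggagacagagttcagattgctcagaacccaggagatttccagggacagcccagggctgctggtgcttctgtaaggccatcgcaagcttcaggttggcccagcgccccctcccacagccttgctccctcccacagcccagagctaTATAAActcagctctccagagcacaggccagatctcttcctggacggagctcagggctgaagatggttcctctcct
Bgn: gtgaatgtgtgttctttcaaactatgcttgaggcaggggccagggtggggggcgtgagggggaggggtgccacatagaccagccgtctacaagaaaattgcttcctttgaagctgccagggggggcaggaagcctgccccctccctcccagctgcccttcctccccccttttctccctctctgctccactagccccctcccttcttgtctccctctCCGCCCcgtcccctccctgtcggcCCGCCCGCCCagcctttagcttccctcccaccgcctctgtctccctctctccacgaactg
Col17a1: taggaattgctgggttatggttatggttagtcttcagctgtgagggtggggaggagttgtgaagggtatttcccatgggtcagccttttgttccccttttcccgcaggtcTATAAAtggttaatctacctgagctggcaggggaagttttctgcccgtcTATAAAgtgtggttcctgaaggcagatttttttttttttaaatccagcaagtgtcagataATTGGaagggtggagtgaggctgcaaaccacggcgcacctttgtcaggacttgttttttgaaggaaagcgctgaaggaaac
Col4a1: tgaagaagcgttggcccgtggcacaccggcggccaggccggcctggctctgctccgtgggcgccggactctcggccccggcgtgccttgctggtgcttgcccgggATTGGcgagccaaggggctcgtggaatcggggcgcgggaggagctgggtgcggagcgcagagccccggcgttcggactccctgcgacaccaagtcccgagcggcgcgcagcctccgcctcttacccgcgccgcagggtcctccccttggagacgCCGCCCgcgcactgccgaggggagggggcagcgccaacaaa

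The letters differ between these genes. The Postn window held 1 TATA match, that of Col17a1 held 2 TATA matches and 1 CCAAT box, that of Bgn held 3 GC boxes, and that of Col4a1 held 1 GC box and 1 CCAAT box. RefSeq windows were matched for 29 of the 41 genes (34 windows). A GC box was in 67.6% of these windows and in 35.7% of all 32851 windows, a TATA match in 17.6% and 13.6%, a CCAAT box in 38.2% and 37.4%, and the AP-1 motif TGANTCA, searched in the same way, in 2.94% and 7.81%. Col4a1 (chromosome 8, 11198423 to 11312826, minus strand) and Col4a2 (chromosome 8, 11312805 to 11449287, plus strand) are transcribed away from each other, their annotated 5′ ends overlap by 22 bases, and their windows share 78 bases. A match of letters is a description of the window and not evidence of a bound factor.

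Most reads of the fibrillar collagens lay in collagen-high cells. In Ctrl these 11 cells held 92.1% of the Col1a1, 91.0% of the Col1a2 and 93.4% of the Col3a1 UMIs of the library, and 92.8% of the UMIs of Lum, the gene of lumican. Col1a1 and Col3a1 chose the class, so their share is a description. The shares were lower for Col5a1 and Col5a2, which help set the width of fibrils, at 79.1% and 70.2% in Ctrl, where basal cells held 20.5% of the Col5a2 UMIs. In Fgfr2 KO the shares of Col1a1, Col1a2 and Col3a1 were 75.4%, 79.2% and 91.0%, and those of Col5a1 and Col5a2, from 11 and 23 UMIs, 63.6% and 60.9%. In epithelium Col1a1 was at 24.2 CPM (16.3 to 34.5) in basal and 28.0 CPM (21.8 to 35.5) in luminal Ctrl cells, close to the 28.9 CPM (20.2 to 40.0) of immune cells, which should lack it. In Fgfr2 KO the same gene was at 7.07, 4.11 and 11.3 CPM in basal, luminal and immune cells, from 2 or 3 UMIs each. Col3a1 likewise was at 29.8, 32.5 and 39.3 CPM in these classes of Ctrl, and had 0, 3 and 4 UMIs in Fgfr2 KO. The rule kept cells with more of these 2 genes out of the basal, luminal and immune classes, so low levels there are in part set by it. They were read neither as expression nor as its absence. Col1a2 was at 37.1 CPM in basal and 32.9 CPM in luminal cells of Ctrl, above the 15.2 CPM of immune cells. The luminal Col1a1 of Ctrl was uneven, since 12 cells high in Vim, described further on, held 37 of its 69 UMIs (75.4 CPM, 53.1 to 104) and the other 81 cells were at 16.2 CPM (11.1 to 22.9). A further Ctrl cell with 42 Col1a1, 2 Col3a1 and 0 Col1a2 UMIs is counted as collagen-high, although its keratins were at 19.6, Vim at 53.2, the basal markers at 53.7, the luminal markers at 3.08 and the fibroblast markers at 0 per 10000 UMIs. Against basal cells, 30 of 41 members were called higher in the collagen-high cells of Ctrl (10.2% of all genes tested) and 5 lower (8.58%), and in Fgfr2 KO 16 of 26 were called higher (9.27%) and 5 lower (10.4%). The class rests on 2 of these genes, so the counts are a description. Those lower in Ctrl were Lama3, Lama5, Lamb3, Col7a1 and Col17a1, and in Fgfr2 KO Lamb3, Col17a1, Fn1, Postn and Mmp2, of which Mmp2 had 0 UMIs in the 3 cells.

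**Figure D1:**
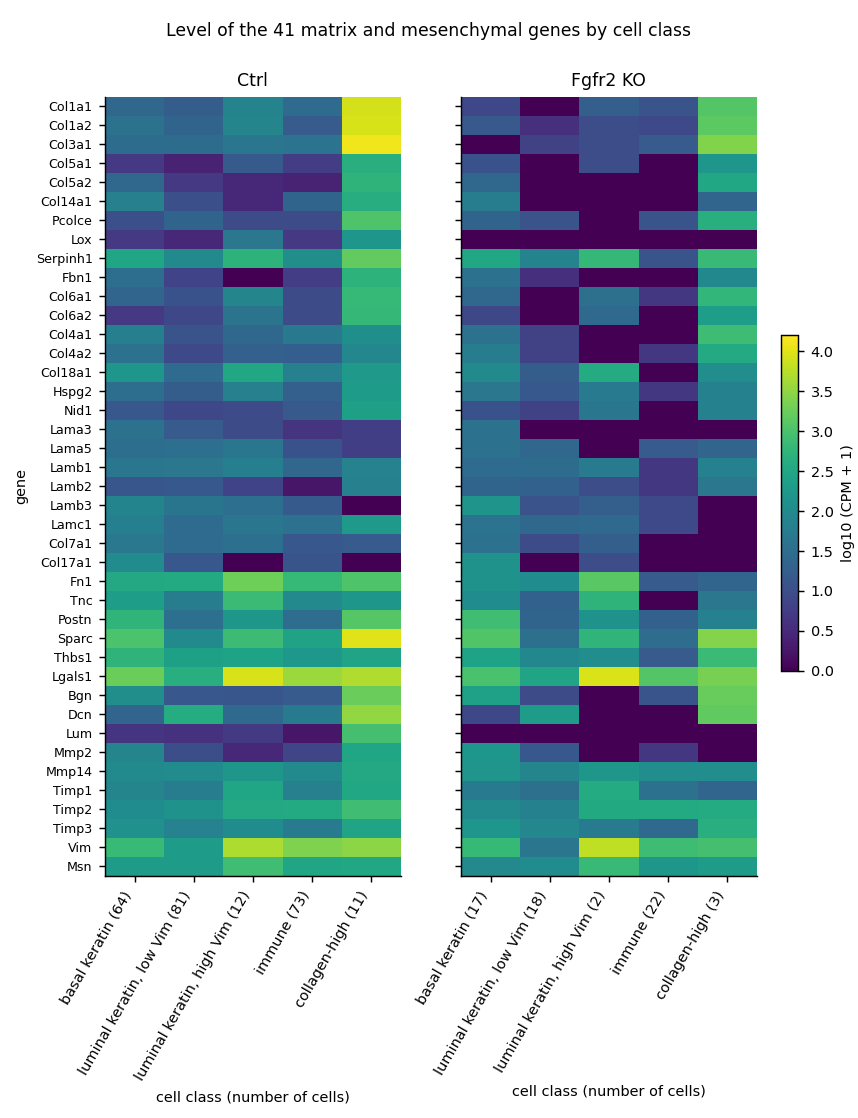
Level of each of the 41 genes in 5 cell classes of the Ctrl and Fgfr2 KO libraries, as log10 of CPM plus 1, with the number of cells in parentheses and genes ordered by role. Col1a1, Col1a2 and Col3a1 stand out in the collagen-high cells, Lgals1 and Vim in the luminal cells high in Vim, and Lamb3 and Col17a1 are at 0 in the collagen-high cells.

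Several stromal genes were nonetheless higher in basal than in luminal cells. A gene was called here when the 2 levels differed at least 2-fold, at least 20 UMIs were summed over both sides, and the counting interval excluded no change. In Ctrl 13 of the 39 genes with 20 or more UMIs were called higher in basal cells (background 5.09% of 9411 genes), and 3 were called lower (6.9%). In Fgfr2 KO 8 of 22 were called higher (6.08% of 4439) and 6 lower (8.88%). Called the same way in both libraries were 6 genes that were higher (3.09%), namely Col17a1, Postn, Sparc, Thbs1, Bgn and Mmp2, and 2 that were lower (3.16%), Fn1 and Dcn. Fn1 had log2 ratios of -1.01 in Ctrl and -1.52 in Fgfr2 KO. Of 12 other settings, Fn1 lost its call in 4 in Ctrl, and in Fgfr2 KO lost it in 2 and reversed in 2. Dcn kept its call in all 12 in both libraries. The median log2 ratio of the genes tested was 0.31 in Ctrl and 0.62 in Fgfr2 KO, against -0.10 and -0.15 over all genes tested.

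Col17a1 (chromosome 19, 47646344 to 47692094, minus strand), the transmembrane collagen of hemidesmosomes, had the largest share of its Ctrl UMIs in basal cells of all 41 genes. It was at 105 CPM (87.5 to 124) in basal and 10.2 CPM (6.57 to 15.0) in luminal Ctrl cells, and at 145 CPM (104 to 197) and 2.06 CPM (0.0520 to 11.5, 1 UMI) in Fgfr2 KO. The log2 ratio was 3.37 (2.74 to 4.05) in Ctrl and 6.14 (3.58 to 11.48) in Fgfr2 KO. This share was 76.0%, where basal cells held 22.7% of all UMIs, and the collagen-high cells of either library had none.

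Postn (chromosome 3, 54361109 to 54391037, plus strand), which encodes periostin, was at 565 CPM (524 to 608) in basal and 59.3 CPM (50.1 to 69.7) in luminal Ctrl cells. In Fgfr2 KO it was at 802 CPM (701 to 913) in basal and 49.3 CPM (31.6 to 73.4) in luminal cells. The log2 ratios were 3.25 (2.99 to 3.52) and 4.02 (3.41 to 4.70). Basal cells, and not the collagen-high cells, held most of the Ctrl reads of this gene (61.4%), although its level per UMI was higher in the collagen-high cells, at 1258 CPM. Of the basal cells, 51 of 64 (Ctrl) and 14 of 17 (Fgfr2 KO) had a Postn UMI, and the basal median was 3.88 per 10000 UMIs in Ctrl with a highest cell at 33.5.

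Sparc (chromosome 11, 55394500 to 55423183, minus strand), a collagen-binding matricellular protein, was read in all 64 and all 17 basal cells. Its level was 1036 CPM (980 to 1094) against 235 CPM (216 to 255) in luminal cells of Ctrl, and 1127 CPM (1007 to 1258) against 156 CPM (123 to 195) in Fgfr2 KO, which gave log2 ratios of 2.14 and 2.85 (2.49 to 3.23 in Fgfr2 KO). Thinned to 8389 UMIs per cell, Sparc was read in 57 of 57 basal and 54 of 87 luminal cells of Ctrl, and in 13 of 13 and 5 of 17 of Fgfr2 KO. The difference in detection was therefore present at equal depth.

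Bgn (chromosome X, 73483602 to 73495933, plus strand), the small proteoglycan biglycan, was at 118 CPM (100 to 139) in basal and 12.6 CPM (8.55 to 17.9) in luminal Ctrl cells, and at 254 CPM (199 to 320) and 6.17 CPM (3 UMIs) in Fgfr2 KO. Mmp2 (chromosome 8, 92827291 to 92853420, plus strand), a gelatinase that degrades type IV collagen, was at 81.4 CPM (66.3 to 98.9) and 7.72 CPM (4.65 to 12.0) in Ctrl, and at 163 CPM (119 to 217) and 10.3 CPM (3.34 to 24.0) in Fgfr2 KO. Both genes are known as products of stromal cells, and their log2 ratios of basal over luminal were 3.23 and 5.37 for Bgn and 3.40 and 3.98 for Mmp2. Thbs1 (chromosome 2, 118111876 to 118127133, plus strand), thrombospondin 1, differed less, at 540 CPM (500 to 583) against 247 CPM (228 to 268) in Ctrl and 276 CPM (218 to 344) against 96.6 CPM (71.0 to 128) in Fgfr2 KO. Its log2 ratios were 1.13 (0.97 to 1.29) and 1.51 (0.97 to 2.07).

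Other basal calls were made in 1 library, most of them in Ctrl, where the counts were larger. The structural chains of the basement membrane Col4a1 and Col4a2 were at 62.9 and 37.9 CPM in basal against 13.8 and 9.75 CPM in luminal cells, log2 ratios of 2.19 (1.59 to 2.81) and 1.96 (1.22 to 2.73). In Fgfr2 KO they had 10 and 16 basal UMIs and 2 luminal UMIs each, under the minimum for a call. Immune cells of Ctrl held 28.6% of the Col4a1 and 17.9% of the Col4a2 UMIs, beside 22.85% of all UMIs. Col4a2 was called higher in basal than in immune cells of Ctrl, and Col4a1 was not. Col4a1 was called lower in luminal than in immune cells of Ctrl. Among the laminins, Lama3, a chain of the laminin that hemidesmosomes bind, was higher in Ctrl basal cells at 37.9 against 13.8 CPM, and Lamc1 at 63.7 against 31.3 CPM. Lamb3, the partner of Lama3 in that laminin, was at 79.0 against 39.8 CPM in Ctrl, just under 2-fold, and at 148 against 12.3 CPM in Fgfr2 KO, where it was called with a log2 ratio of 3.59 (2.35 to 5.11). Timp3, an inhibitor of matrix proteases, was likewise called in Fgfr2 KO alone, at 159 against 78.1 CPM (1.03, 0.37 to 1.69), but the call was lost under 4 other settings and the ratio turned to -0.32 at a keratin minimum of 50 per 10000 UMIs. Lama5, Lamb1 and Lamb2 were at 31.4, 43.5 and 12.1 CPM in Ctrl basal cells and at 34.9, 48.3 and 11.8 CPM in luminal cells, with no call in either library. The remaining Ctrl calls were Col14a1, which binds the surface of collagen fibrils, at 65.3 against 8.12 CPM, the fibril regulator Col5a2 with 31 against 9 UMIs (log2 ratio 2.77, 1.67 to 4.03), and Fbn1, the main protein of microfibrils, at 32.2 against 4.87 CPM. In Fgfr2 KO these 3 genes had 17, 7 and 10 UMIs in basal cells and 0, 0 and 1 in luminal cells.

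**Figure D2:**
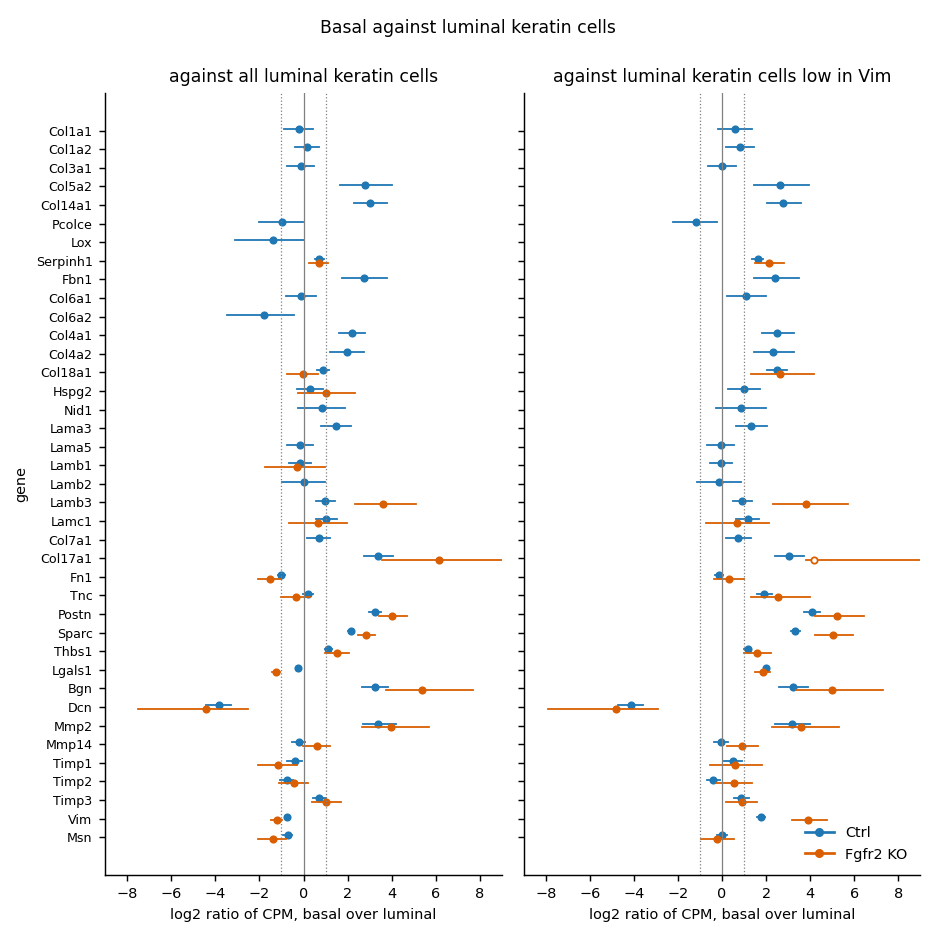
Log2 ratio of CPM in basal over luminal keratin cells for genes with 20 or more UMIs, against all luminal cells (left) and against luminal cells low in Vim (right), with counting intervals, an open circle for a bound at 3 counts, and dotted lines at 2-fold. Col17a1, Postn, Sparc, Thbs1, Bgn and Mmp2 lie at or beyond 2-fold on the right in both libraries (the Col17a1 interval of Fgfr2 KO runs past the axis), and Vim and Lgals1 change sides between the panels.

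Luminal cells exceeded basal cells in few genes, and a small set of luminal cells carried most of them. In Fgfr2 KO, Vim, Lgals1, Timp1 and Msn were called lower in basal cells beside Fn1 and Dcn, and in Ctrl Col6a2 was. Vim (chromosome 2, 13573927 to 13582826, plus strand) encodes vimentin, the intermediate filament of mesenchymal cells. The class totals of Vim were 671 CPM in basal and 1114 CPM in luminal Ctrl cells, and 650 and 1517 CPM in Fgfr2 KO. A gap in Ctrl between 9.55 and 17.7 per 10000 UMIs set 12 of 93 luminal cells apart (12.9%, exact Clopper-Pearson interval 6.85 to 21.5%), and in Fgfr2 KO 2 of 20 (10%, 1.23 to 31.7%) were apart by a gap between 1.51 and 59.5. These cells held 85.7% and 97.8% of the luminal Vim UMIs. The other luminal cells of Ctrl had a Vim median of 1.48 per 10000 UMIs, below the basal median of 4.94. The limit of 10 per 10000 was chosen after the values were seen.

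The luminal cells high in Vim were also rich in other members. Of the 35 members with 20 or more UMIs, 17 were called higher in them than in other luminal cells of Ctrl (background 7.53%) and 2 lower (9.08%), and in Fgfr2 KO 12 of 15 were called higher (15.1%) and 1 lower (11.6%). The 11 genes called higher in both libraries (4.68%) were Vim, which chose the cells, with Lgals1, Fn1, Tnc, Sparc, Postn, Col18a1, Serpinh1, Timp1, Timp2 and Msn, and Dcn was lower in both (5.58%). Lgals1, which encodes the lectin galectin 1, was at 8663 against 442 CPM in Ctrl and at 9181 against 279 CPM in Fgfr2 KO. Tnc, tenascin C, was at 732 against 58.3 CPM and at 533 against 18.8 CPM. Fn1 (chromosome 1, 71585520 to 71653200, minus strand), fibronectin, was at 1904 against 373 CPM and at 1319 against 110 CPM. Col18a1, the source of endostatin, was at 316 against 27.9 CPM and at 376 against 16.1 CPM, and Serpinh1, the chaperone of newly made collagen, at 514 against 95.8 CPM and at 620 against 75.2 CPM. Lox, which crosslinks collagen, was called in Ctrl only, at 44.9 against 2.03 CPM, and had 0 UMIs in the whole Fgfr2 KO library.

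These 14 cells were put in the luminal class by keratin alone, and their other markers go against that name. A list of 7 basal markers summed to 38.2 per 10000 UMIs in the Ctrl cells and one of 9 luminal markers to 2.39, where basal cells had 57.0 and 3.49 and the other luminal cells 5.10 and 34.8, and in Fgfr2 KO the Vim-high cells had 44.1 and 1.05. They are therefore called by Vim and not by a cell type. In Ctrl, Krt8 was at 2076 CPM against 2607 CPM in the other luminal cells, but 1 of the 12 cells held 45.9% of these Krt8 UMIs and 53.3% of those of Krt18. In Fgfr2 KO Krt8 was at 900 against 2362 CPM and Krt18 at 446 against 2660 CPM. In Ctrl, Krt19 was at 143 against 2509 CPM and the adhesion genes Epcam and Cdh1 at 322 against 1117 CPM and at 10.2 against 235 CPM. Basal cells had 658 CPM of Epcam and 109 CPM of Cdh1, so both genes were lower in the Vim-high cells than in either class. The smooth muscle gene Acta2 was at 1649 CPM, against 205 CPM in other luminal and 2239 CPM in basal cells. No Pdgfra UMI was found in them in either library, where a count of 0 allows up to 6.12 CPM for the 12 cells and 26.2 CPM for the 2. Their median depth was 38593.5 UMIs in Ctrl and 57235.5 in Fgfr2 KO, above the luminal medians of 22599 and 23717.5. The doublet caller Scrublet marked 0 of the 12 and 1 of the 2, and without the marked cells 3 members, where there had been 6, were called lower in basal than in luminal cells of Fgfr2 KO.

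Against luminal cells low in Vim, more members were called higher in basal cells. Of 37 members tested in Ctrl 19 were then called higher (background 6.2%) and 2 lower (7.28%), and of 20 in Fgfr2 KO 12 higher (7.49%) and 1 lower (9.03%). Called higher in both libraries were 11 (4.03%), the 6 above and, in addition, Vim, Lgals1, Tnc, Col18a1 and Serpinh1, and Dcn alone was called lower in both (3.72%). The luminal side was here limited by Vim while 10 of 64 and 3 of 17 basal cells over the same limit stayed in, so the log2 ratios of Vim, 1.76 and 3.92, and its change of sign were set by that choice and are a description. The luminal cells left out were the ones rich in members. The larger counts and the calls of Lgals1, Tnc, Col18a1 and Serpinh1 therefore follow in part from the same choice and are descriptions too. Lgals1 had log2 ratios of 2.01 and 1.84, with Ctrl first. Fn1 was at -0.15 and 0.32 and was called in neither. Among members called in either comparison, the sign of the ratio turned when the 12 and 2 cells were left out for Vim and Lgals1 in both libraries, for Col6a1 (-0.11 to 1.08) in Ctrl, and for Fn1, Timp1 (-1.14 to 0.60), Tnc (-0.35 to 2.54) and Col18a1 (-0.03 to 2.62) in Fgfr2 KO. The 10 further mesenchymal genes examined beside the members summed to 379 CPM in basal against 539 CPM in these luminal cells of Ctrl, and to 350 against 511 CPM in Fgfr2 KO.

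**Figure D3:**
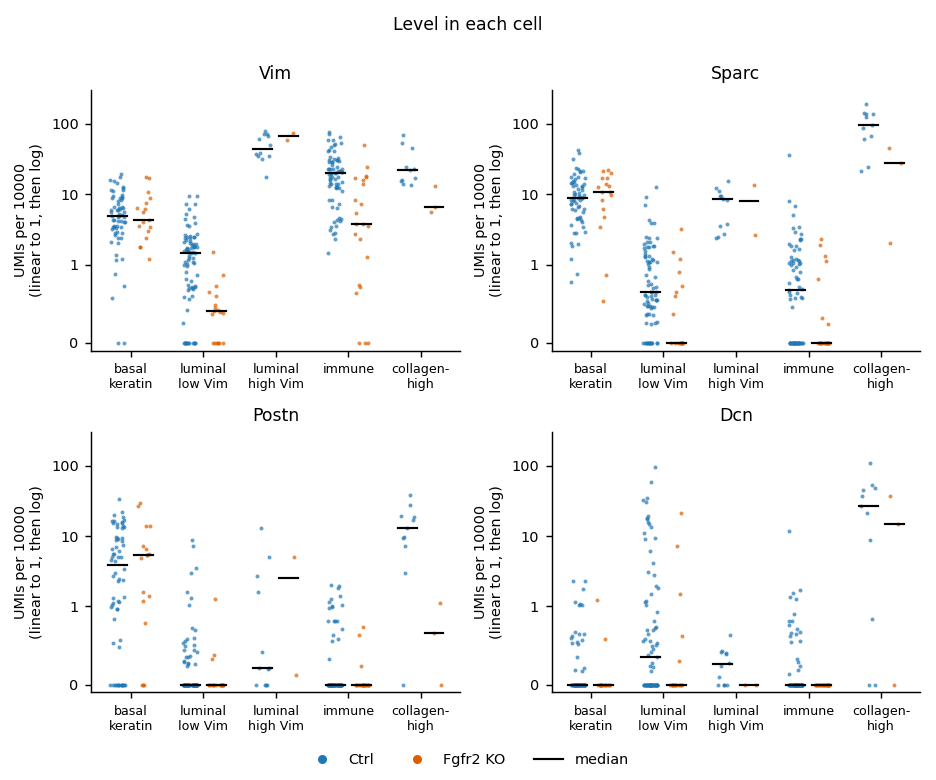
UMIs per 10000 in every cell for Vim, Sparc, Postn and Dcn by class and library, on an axis that is linear to 1 and logarithmic above, with a bar at the median. Vim is high in a separate group of luminal cells, Sparc and Postn are high across basal cells, and Dcn is high in some luminal cells low in Vim.

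Dcn (chromosome 10, 97479609 to 97518143, plus strand), the small proteoglycan decorin and a common fibroblast marker, was higher in luminal than in basal cells. It was at 319 CPM (297 to 342) in luminal and 22.6 CPM (15.0 to 32.6) in basal Ctrl cells, and at 152 CPM (119 to 191) and 7.07 CPM (0.856 to 25.5) in Fgfr2 KO, log2 ratios of -3.82 (-4.42 to -3.28) and -4.43 (-7.50 to -2.52). Collagen-high cells had 3361 CPM in Ctrl, but luminal cells, which were many more, held 50.7% of the Ctrl Dcn UMIs. Lum, a proteoglycan of the same family that fibroblasts make together with decorin, had 8 UMIs in luminal Ctrl cells (3.25 CPM) and 0 in Fgfr2 KO.

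The luminal Dcn came from few cells. Among the 81 luminal Ctrl cells low in Vim, 12 had Dcn at 10 or more per 10000 UMIs and held 637 of 773 Dcn UMIs (82.4%), and in Fgfr2 KO 1 of 18 held 53 of 74 (71.6%). The limit was chosen after the values were seen, and no gap separated the 12 cells, since the lowest inside was at 11.1 and the highest outside at 9.33. These 12 Ctrl cells had Prlr, the prolactin receptor, at 880 CPM against 230 CPM in the other 69, and the steroid receptor genes Pgr and Esr1 at 142 against 23.4 CPM and at 84.1 against 19.3 CPM. Foxa1, a transcription factor of hormone-sensing luminal cells, was in 12 of 12 and in 43 of 69 cells. The alveolar regulator Elf5 had 0 UMIs in the 12 cells and 72 in the others (42.1 CPM), and the milk-associated genes Spp1 and Wfdc18 were at 49.7 against 822 CPM and 11.5 against 299 CPM. The fibroblast genes Lum and Pdgfra had 0 UMIs in the 12 cells, and Col1a1 was at 26.8 CPM (10.8 to 55.2) against 14.6 CPM (9.46 to 21.6). The single Fgfr2 KO cell had 16 Prlr and 4 Pgr UMIs and 0 of Esr1, Elf5 and Spp1, but its Foxa1 was at 40.1 CPM, from 1 UMI, against 161 CPM in the other 17 cells. These are descriptions of cells picked by Dcn, with no test.

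Free RNA from collagen-high cells could reach any droplet, so the level it would leave was computed. The level of tracer genes in a class over that in collagen-high cells gives the share carried, and this share times the level of each gene in collagen-high cells is the level expected if none were made by the class. With Col1a2, Dcn and Lum as tracers, the share was 0.482% in Ctrl basal and 2.72% in luminal cells, and 0.732% and 5.39% in Fgfr2 KO. A gene was counted as above the expected level when it was at least 2-fold above it and the interval excluded it. This held for 33 of 38 members in Ctrl basal cells (99.1% of all genes with 20 or more UMIs), all but Col1a1, Col3a1, Col5a1, Pcolce and Col6a2, and for 22 of 24 in Fgfr2 KO (98.4%). Nearly every gene of any class passes, so the counts single out the members that do not, and a level above the expected one is not particular to epithelium. Immune cells passed for 25 of 32 members in Ctrl (99%) and 8 of 15 in Fgfr2 KO (98.5%). Sparc was observed at 1036 CPM where 48.0 CPM were expected in Ctrl basal cells, Postn at 565 where 6.06 were expected, Bgn at 118 where 8.47 were, and Mmp2 at 81.4 where 1.45 were. Col1a1 and Col3a1 were at 24.2 and 29.8 CPM, below the 40.8 and 62.9 CPM expected, though the class rule limits both genes. Lama3, Lamb3, Col7a1 and Col17a1, the epithelial members of the laminin and hemidesmosome group, had 1, 0, 3 and 0 UMIs in Ctrl collagen-high cells.

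In luminal cells the count differed between sets of tracers. Dcn is one of the first set and was itself high there, and its part in the difference was not tested. With Col1a2, Dcn and Lum, 24 of 38 members lay above the expected level in Ctrl (98.6%) and 14 of 21 in Fgfr2 KO (97.9%). The Fgfr2 KO count was 5 without the 2 Vim-high cells and 3 at a keratin minimum of 50 per 10000 UMIs. Col1a1 and Col3a1 were also used as tracers, but they chose the collagen-high class and are limited in every other class, so the expected level is low by construction and the counts are a description. With them the shares were 0.281% and 0.277%, and 37 of 39 (99.4%, all but Col1a2 and Lum) and 18 of 21 (99.4%) lay above it, Dcn among them in both libraries. In basal cells the same tracers gave 36 of 39 (99.2%) and 23 of 24 (98.7%), and in immune cells 30 of 33 (99.1%) and 6 of 15 (98.3%). With Col1a2, Dcn and Lum, Sparc, Postn, Bgn and Mmp2 in luminal Ctrl cells were not counted as above the expected level. The rule asks for a 2-fold excess as well as the interval, so a smaller excess stays uncounted. The collagen-high cells of Fgfr2 KO held 43865 UMIs in all, so that a gene expected there at a low level may be missed.

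**Figure D4:**
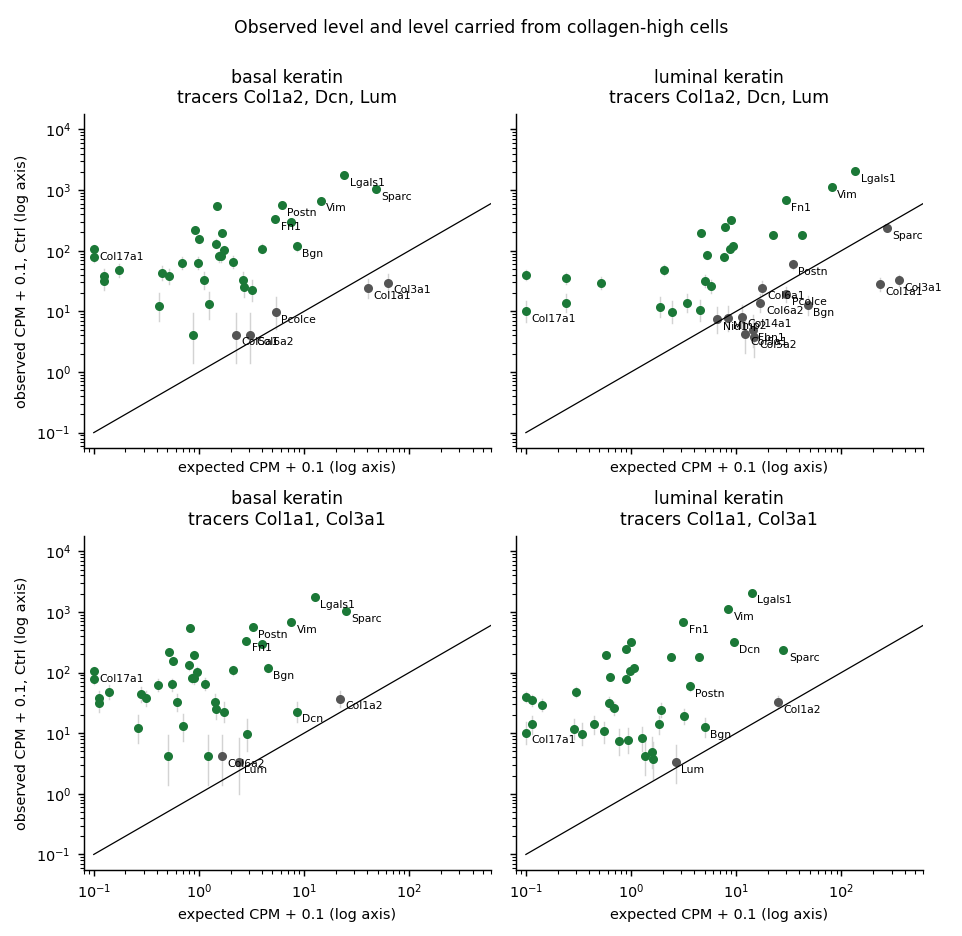
Observed CPM (with counting interval) against the CPM expected from RNA of collagen-high cells in Ctrl, both plus 0.1 on log axes, for basal (left) and luminal cells (right) with 2 sets of tracers (rows). Green points were counted as above the expected level (at least 2-fold, with the interval above it) and grey points were not. The line marks equality: in basal cells Sparc, Postn and Bgn lie above it and Col1a1, Col3a1 or Col1a2 near or below it.

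Immune cells of the same libraries were compared as well. They are not free of these genes, as the members summed to 8831 CPM in them and to 7265 CPM in basal cells of Ctrl, and 6 of the 73 had keratin. Basal cells exceeded them in 20 of 36 members in Ctrl (background 15.1%) and in 12 of 18 in Fgfr2 KO (12.7%), with 4 (11.9%) and 1 (15.4%) lower, and 11 were called in both (7.62%): Serpinh1, Col18a1, Lamb3, Col17a1, Tnc, Postn, Sparc, Thbs1, Bgn, Mmp2 and Timp3. Luminal cells exceeded immune cells in 11 of 37 members in Ctrl (17.4%) and 9 of 15 in Fgfr2 KO (13%), with 4 (9.53%) and 1 (10.4%) lower, and Tnc and Dcn were the 2 called higher in both (5.96%). The Ctrl count of 11 was 18 without the 6 immune cells with keratin, 19 by a mean over cells, and 7 without the Vim-high cells or with scaling by the median ratio. Timp2, an inhibitor of matrix proteases, was the 1 member called lower than in immune cells in both libraries, for basal (9.74%) and for luminal cells (6.99%), at 374 and 370 CPM in immune cells against 108 and 102 CPM in basal cells. Immune cells had members of their own in Ctrl, where Vim was at 2441 CPM and Lgals1 at 3689 CPM. They held 39.6% of the Vim and 33.3% of the Lgals1 UMIs of that library. In Fgfr2 KO these shares were 16.6% and 15.3%, where immune cells held 21.1% of all UMIs.

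The number of members read per cell was also compared at equal depth. Thinned to 8389 UMIs, Ctrl basal cells had a median of 16 of the 41 genes, luminal cells low in Vim 9, those high in Vim 17, immune cells 8 and collagen-high cells 29. In Fgfr2 KO the medians were 17, 6, 13, 4 and 24. Thinning left out 7 of 64 basal and 6 of 81 low-Vim luminal cells of Ctrl and 4 of 17 and 3 of 18 of Fgfr2 KO. It also left out 15 of 73 immune and 3 of 11 collagen-high cells of Ctrl and 13 of 22 immune cells of Fgfr2 KO, whose median of 4 rests on 9 cells. Without thinning the medians of basal and low-Vim luminal cells were 20.5 and 16 in Ctrl and 21 and 9 in Fgfr2 KO, and those of the Vim-high cells were 26 and 24. Basal cells were above low-Vim luminal cells each time, and the order of basal and Vim-high cells differed between the libraries at equal depth.

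Between libraries, the number of members that differed in basal cells depended on how cells were weighted. Of 35 members with 20 or more UMIs, 1 was called higher in Fgfr2 KO (background 2.25%) and 4 lower (4.19%). Bgn was at 254 CPM in Fgfr2 KO and 118 CPM in Ctrl, a log2 ratio of 1.10 (0.67 to 1.52). Fn1 was at 138 against 336 CPM (-1.29, -1.80 to -0.81), Tnc at 110 against 220 CPM (-1.01, -1.59 to -0.47) and Msn, the membrane linker moesin, at 95.4 against 197 CPM (-1.05, -1.68 to -0.47). Of 13 other settings, Tnc lost its call in 5 (log2 ratios up to -0.23), Bgn in 2 and Msn in 1, and Fn1 reversed in 1 (0.14). Col3a1 had 0 UMIs in 17 Fgfr2 KO cells and 37 in 64 Ctrl cells, at least 2.81-fold lower with a floor of 3 counts over the group. Its Ctrl basal level was below that of immune cells, the class rule limits it, and collagen-high cells had 13051 CPM of it in Ctrl and 2530 CPM in Fgfr2 KO, so this call is not read as a change in basal cells. Without the top cell of each side 8 members were called lower, and by a mean over cells 11 were and 0 were higher. With classes that needed 80% of keratin UMIs of one kind, 0 members were called higher and 2 lower, and with a keratin minimum of 50 per 10000 UMIs 4 were higher and 0 lower. Each genotype was 1 library, so genotype and library cannot be told apart.

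Luminal donor cells were wild type in both groups by design, but in the luminal keratin class GFP was read as well, as given above, and whether cells of the treated basal donors were among them was not tested. In this class 0 of 37 members were called higher in Fgfr2 KO (2.69%) and 9 lower (3.92%), and 14 were lower without the cells that Scrublet marked, 15 without the top cell of each side and 20 by a mean over cells. The members had a median log2 ratio of -0.59 against -0.04 over all genes tested. The lower members included Col1a1 (4.11 against 28.0 CPM), Col1a2 (4.11 against 32.9 CPM) and Col3a1 (6.17 against 32.5 CPM). Collagen-high cells made up 4.10% of the Ctrl cells and 3.49% of the Fgfr2 KO cells (without the cell that also had Ptprc, a further 1.16%), but had 8473 and 1185 CPM of Col1a1, and the part of this difference in the luminal calls was not tested. The other luminal calls were Col6a1, Lama3, Lamb3, Col7a1, Thbs1 and Dcn. Under other settings the call was lost in 4 for Lama3, in 3 for Dcn and in 2 each for Lamb3 and Col7a1. It was lost in 1 each for Col1a1, Col1a2, Col3a1 and Col6a1, and Thbs1 kept it in all. Thbs1 was at 96.6 against 247 CPM (-1.36, -1.82 to -0.93), and Lama3 had 0 UMIs against 34, at least 2.24-fold lower. Among immune cells 0 of 26 were called higher (5.84%) and 12 lower (5.3%), among them Fn1 at 15.1 against 645 CPM and Thbs1 at 15.1 against 173 CPM. Per 10000 UMIs, the 9 immune markers were at 170 in Ctrl and 140 in Fgfr2 KO immune cells, the 7 basal markers at 12.2 and 0.982, the 9 luminal markers at 7.42 and 16.4 and the 6 epithelial markers at 4.51 and 12.6. The 21 of 22 Fgfr2 KO immune cells without keratin held 180679 of 264673 UMIs, and 10 members were called lower without the keratin-bearing cells of both libraries and 21 by a mean over cells. The part of these differences in the calls was not tested.

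**Figure D5:**
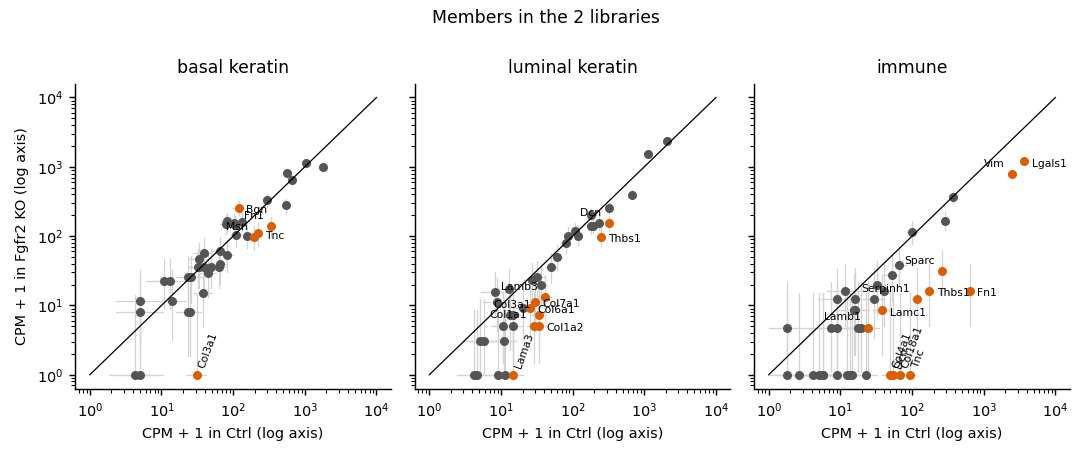
CPM plus 1 in Fgfr2 KO against Ctrl for the 41 genes in basal, luminal and immune cells, on log axes with counting intervals and a line of equality, and with called genes in orange. In basal cells Bgn lies above the line and Col3a1, Fn1, Tnc and Msn below it, and in luminal and immune cells every called gene lies below it.

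Beyond the 41 genes, 80 further matrix and mesenchymal genes were examined in the same way. In Ctrl 17 of the 48 with 20 or more UMIs were called higher in basal than in luminal cells (background 5.09%) and 8 lower (6.9%), and in Fgfr2 KO 13 (6.08%) and 5 (8.88%) of 25. In both libraries 9 genes were called higher (3.09%) and 2 lower (3.16%), and the 5 with the largest ratios are named, ranked by the smaller ratio of both libraries. Col16a1, a collagen that lies along fibrils, was at 110 against 24.8 CPM in Ctrl and at 194 against 12.3 CPM in Fgfr2 KO. Fbln1, which encodes the basement membrane glycoprotein fibulin 1, had log2 ratios of 1.97 and 2.95. The protease Adamts1 was at 204 against 58.5 CPM and at 212 against 37.0 CPM, and the protease inhibitor Serpine2 at 121 against 39.8 CPM and at 173 against 22.6 CPM. Zeb2, a transcription factor of mesenchymal and immune cells, was lower in basal cells, with log2 ratios of -1.67 and -2.47. Against luminal cells low in Vim, Zeb2 was not among the 2 further genes called lower in both libraries. These are the counts of a list that was chosen with results of these data in view.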

How the data were processed

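Droplet-based single-cell RNA-seq of mammary transplants gave 1 library per group (Ctrl and Fgfr2 KO). The deposited table held unnormalised UMI counts for each gene in each cell, which the authors made with Cell Ranger (2.1.1 and mm10 per the submitters' processing notes) and joined for both libraries. Whether joining evened out depth was not given in the sources used here. The table was not filtered for CD45, so cells with Ptprc were classed here, and columns were assigned to libraries by their prefix. Columns of unknown sample numbered 0. The 41 members, the further lists and the limits were chosen with earlier results of these data known.

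For each class and library, a gene's UMIs were summed and expressed per 1000000 UMIs of the class (CPM). Exact Poisson intervals were used for levels, exact conditional binomial intervals for ratios and exact Clopper-Pearson intervals for shares (95%, scipy 1.17.1, numpy 2.4.6, pandas 2.3.3, Python 3.11.15). With 1 library per group there was no test. The call rule was 2-fold, 20 or more UMIs over both sides and an interval that excluded no change, and its background is the percentage of all tested genes called the same way. A group at 0 was set to a floor of 3 counts. Intervals and floors cover counting error only. Doublets were kept, and Scrublet (scanpy 1.11.5, seed 0) marked 3 Ctrl and 2 Fgfr2 KO cells. Gene positions were from GENCODE M21 (GRCm38), promoters from RefSeq (GRCm38.p6). The call procedure was tested on simulated data. Figures were drawn with matplotlib 3.10.9. Members are described by role, with values for many of those called, while some calls are given by name or within a count alone. At most 5 genes of the further list are named.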

Additional observations from a re-analysis of the deposited data

Results flagged for a closer look

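Cells low in keratin, collagen and Ptprc also had reads of members above the limit that a count of 0 allows, which is a counting limit and not a background level. The 27 Ctrl cells with neither Ptprc nor enough keratin or collagen had the 41 genes at a summed 7235 CPM (2255 UMIs), and 28 of the 41 exceeded the limit of 9.63 CPM. Among the 28 were Col1a1 at 25.7 CPM and Col3a1 at 44.9 CPM, where immune cells had 28.9 and 39.3 CPM. The 23 such cells of Fgfr2 KO had 2712 CPM (456 UMIs), with 7 of 41 over a limit of 17.8 CPM. Lgals1, at 2997 and 1368 CPM, and Vim, at 1572 and 535 CPM, led both. Of these cells 15 and 17 had 5 immune genes at a summed 10 or more per 10000 UMIs, and their median depth was 6989 and 3758 UMIs. The part of immune cells without a Ptprc UMI in this signal was not tested further.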

How the results depend on the processing

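No paired analysis was possible because each group had 1 library. Of 250 counts of called members recomputed under other settings, 212 stayed within 1.5 times and 38 moved, and of 538 single-gene ratios 472 kept their call and direction, 56 lost the call and 10 reversed. Of 32 shares of cells with a UMI, 12 moved out of their interval when cells were thinned to 1 depth, each to a lower share. Thinning discards UMIs, so a fall is built into it. The causes of the other moves were not tested. Main counts are in brackets. A collagen limit of 20 gave 5 lower in Ctrl basal than luminal cells [3]. Keratin classes from 80% gave 3 lower in Fgfr2 KO [6], 10 higher [6] and 1 lower [2] in both libraries, 7 luminal over immune in Ctrl [11], and 0 higher [1] and 2 lower [4] in Fgfr2 KO basal cells. A keratin minimum of 50 gave 1 lower in Fgfr2 KO [6] and 1 in both [2], 4 higher [1] and 0 lower [4] in Fgfr2 KO basal cells, 4 luminal over immune in Fgfr2 KO [9] and 3 luminal members over the carried level [14]. Without Scrublet doublets 3 were lower in Fgfr2 KO [6], 1 in both [2] and 14 in Fgfr2 KO luminal cells [9]. Scaling by the median ratio gave 2 higher in Fgfr2 KO basal cells [1], 7 luminal over immune in Ctrl [11] and 1 lower in both [2]. Among the 9 comparisons recomputed, the median of all genes moved by over 0.1 only for basal and luminal against immune Ctrl cells (0.16 and 0.20). Outside these 9, that median was 0.18 and 0.45 for Vim-high against other luminal cells of Ctrl and Fgfr2 KO. For collagen-high against basal cells it was 0.11 and -0.16. Without the top cell of each side 3 were lower in Fgfr2 KO [6], and 8 [4] and 15 [9] were lower in basal and luminal Fgfr2 KO cells. A mean over cells gave 3 lower in Fgfr2 KO [6], 0 higher [1] and 11 lower [4] in Fgfr2 KO basal, 20 [9] lower in luminal and 21 [12] in immune cells, and 19 luminal over immune in Ctrl [11]. Without a minimum of UMIs 15 [8] were higher in Fgfr2 KO, 12 [6] in both, and 22 [12] basal members exceeded immune cells in Fgfr2 KO. The following were chosen after the data were seen. Without luminal cells high in Vim, 1 was lower in Fgfr2 KO [6], 11 higher [6] and 1 lower [2] in both, 7 [11] and 5 [9] luminal members exceeded immune cells in Ctrl and Fgfr2 KO, and 5 [14] the carried level in Fgfr2 KO. Without immune cells that had keratin, 18 luminal members exceeded them in Ctrl [11]. The reversed log2 ratios were, at a keratin minimum of 50, basal over luminal in Fgfr2 KO for Fn1 (0.89), Lgals1 (2.86), Timp1 (1.21), Timp3 (-0.32) and Vim (4.42) and Fgfr2 KO over Ctrl in basal cells for Fn1 (0.14), and, without luminal cells high in Vim, Fn1 (0.32), Lgals1 (1.84), Timp1 (0.60) and Vim (3.92) of Fgfr2 KO. A collagen limit of 5, leaving out cells over 25% mitochondrial UMIs and immune cells chosen also by 5 genes moved no count past 1.5 times. In the Fgfr2 KO library 31 of 41 members had 20 or more UMIs.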

Other observations

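In immune cells, Fn1 was at 645 CPM in Ctrl, where 54 of 73 cells had a UMI, and at 15.1 CPM in Fgfr2 KO, where 3 of 22 did.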
